A study of Mus musculus with 2 samples.

Results

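Transcripts of 8 genes of GABAergic and parvalbumin neurons (*Gad1*, *Gad2*, *Slc32a1*, *Pvalb*, *Reln*, *Lhx6*, *Calb1* and *Calb2*) were described in mouse brain sections after traumatic brain injury. The genes were taken by symbol, and all 8 were found among the 19070 genes counted. Spatial transcriptomics (Visium HD) had been run on paraffin-embedded, PFA perfusion-fixed brain of male C57Bl6 mice aged 3 months. One group was taken 3 days and the other 28 days after a controlled cortical impact over the right parietal lobe, a blow to the exposed brain surface, and no drug treatment was compared beyond the surgery with its anaesthesia and pain relief. Each group held 1 section of 1 mouse, no sham-operated section was analysed here, and the side opposite the impact in the same section served as the reference. With 1 section per group there is no replicate check, so differences between sides have no p-value and the intervals (95%) cover counting error only. Reads were counted as unique molecular identifiers (UMIs) in squares of 16 µm, called bins. A bin can hold several cells or part of one, so that fewer cells and less RNA per cell cannot be told apart in any value given here.

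GABA is the main inhibitory transmitter of the brain. *Gad1* and *Gad2* encode the enzymes that make it from glutamate, and *Slc32a1* encodes the transporter that loads it into synaptic vesicles, so the 3 genes mark GABAergic neurons of every kind. *Pvalb* encodes parvalbumin, a calcium buffer of fast-spiking cortical and hippocampal interneurons and of neurons of the reticular thalamic nucleus, the GABAergic shell around the thalamus. *Lhx6* encodes a transcription factor of the interneurons born in the medial ganglionic eminence, which include the parvalbumin and somatostatin classes. *Reln* encodes reelin, a secreted glycoprotein of layer 1 neurons and of some interneurons. *Calb1* (calbindin) and *Calb2* (calretinin) encode calcium-binding proteins that mark some interneurons but also many excitatory neurons, for example in upper cortical layers, thalamus and hippocampus.

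In the mm10 (GRCm38.p6) annotation of RefSeq, 4 of the 8 genes lie on chromosome 2. *Gad2* spans positions 22621015 to 22693877, *Lhx6* 36081950 to 36105992, *Gad1* 70561303 to 70602014 and *Slc32a1* 158607260 to 158615747. *Calb1* lies on chromosome 4 from 15881264 to 15906709 and *Reln* on chromosome 5 from 21884454 to 22344705. *Calb2* lies on chromosome 8 from 110142526 to 110168212 and *Pvalb* on chromosome 15 from 78191112 to 78206400. The assay counts short probes bound to the transcripts, and neither their positions nor their capture efficiency were used here, so levels are compared between areas for 1 gene and not between genes.

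The section at 3 days held 120615873 UMIs in 121967 bins (median 836 per bin), and the section at 28 days 82422389 UMIs in 105589 bins (median 596). Bins were summed in tiles of 64 µm. The sections were not captured evenly about the midline. At 3 days the array reached 2.08 mm to the injured and 4.62 mm to the opposite side, and at 28 days 3.84 and 2.86 mm. A lesion zone was placed on the injured side from 6 phagocyte genes that are not reported as results, and covered 571 tiles at 3 days and 903 at 28 days. Anatomical regions were assigned to tiles from lists of regional genes that hold none of the 8 genes. Levels are given as CPM, the UMIs of a gene scaled to a common total of UMIs of the area.

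**Figure D1:**
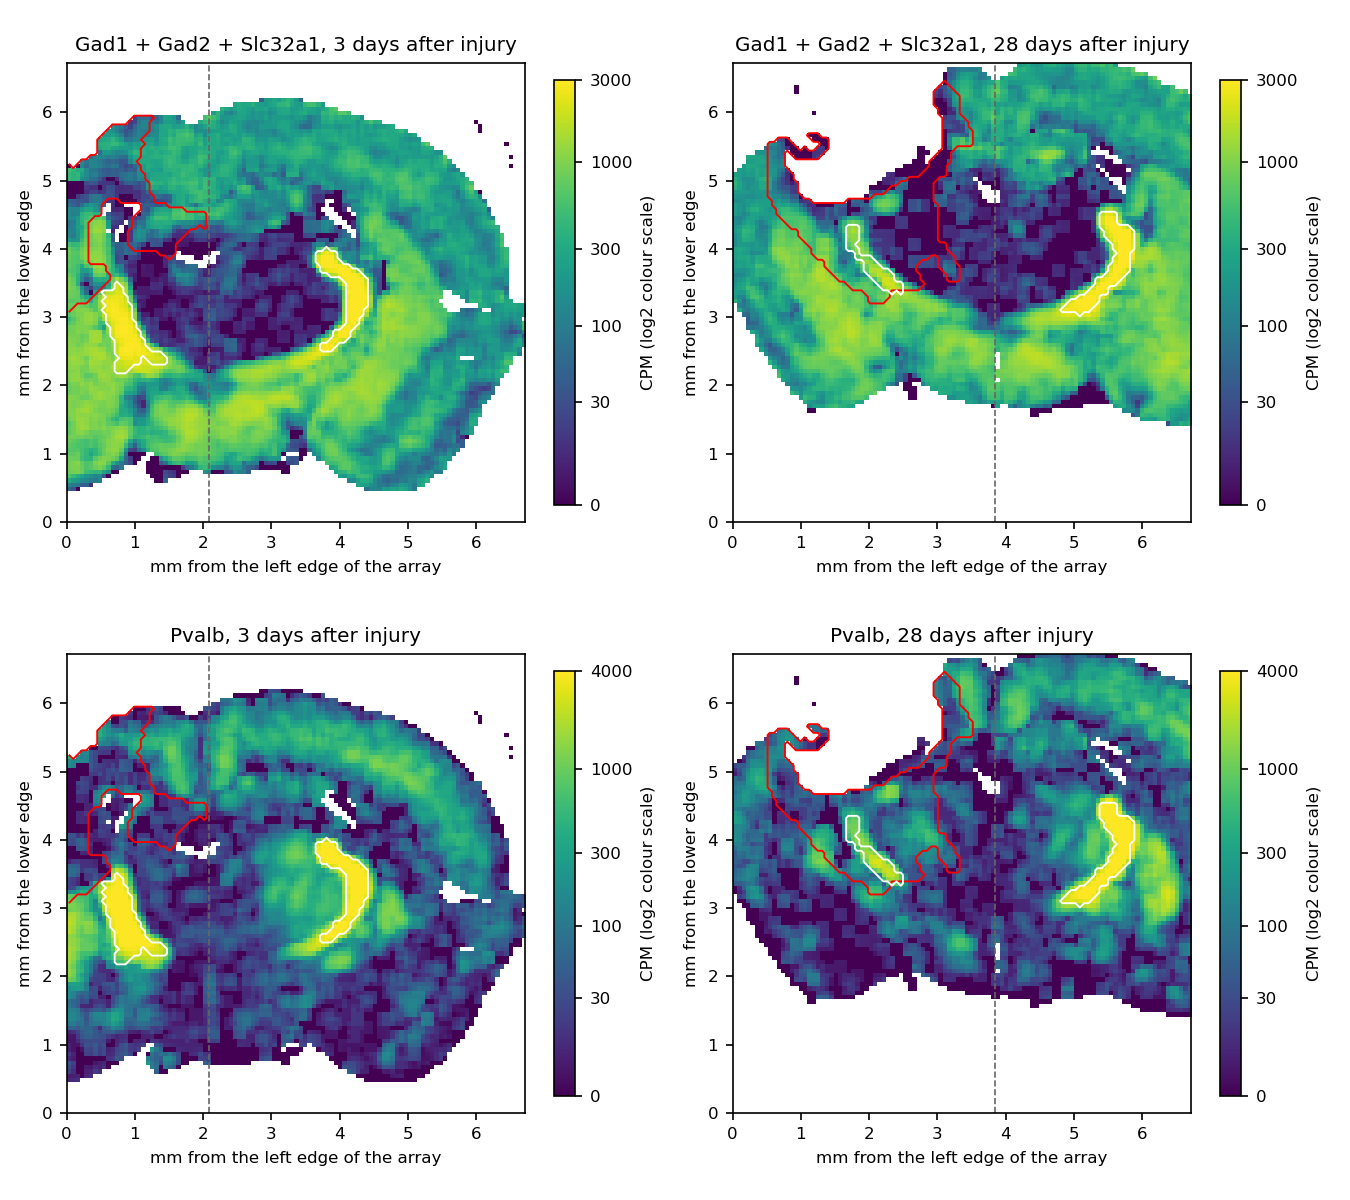
Level of *Gad1*, *Gad2* and *Slc32a1* summed (top) and of *Pvalb* (bottom) in tiles of 64 µm, averaged over 3 by 3 tiles, at 3 days (left) and 28 days (right) after injury. The axes give mm on the array, the colour gives CPM on a log2 scale that ends at the top value of its bar, red outlines the lesion zone, white outlines the Six3 strip of each side, and the dashed line is the midline. *Pvalb* was bright within the Six3 strips, and at 28 days the strip of the injured side was smaller and dimmer than the opposite strip, with 545 against 5601 *Pvalb* UMIs.

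The anatomy of the 8 genes was read first on the side opposite the injury. *Gad1* stood at 1260 CPM at 3 days and 1029 CPM at 28 days in the tiles of the reticular list (*Ecel1*, *Six3*, *Cacna1i*), at 226 and 227 CPM in striatum, at 197 and 178 CPM in hypothalamus and at 121 and 168 CPM in cortex. It was lowest of these in thalamus, at 12.3 and 13.9 CPM. The order from reticular tiles to cortex was the same at both days, although cortex and hypothalamus lay close to each other at 28 days. *Gad2*, the other GABA-synthesising enzyme, was also highest in reticular tiles, at 870 and 951 CPM. Its next levels were 427 and 427 CPM in hypothalamus and 411 and 367 CPM in striatum, well above its 88.2 and 119 CPM in cortex. *Slc32a1* followed the same anatomy, with 305 and 222 CPM in reticular tiles, 148 and 131 CPM in striatum, 134 and 118 CPM in hypothalamus, 34.4 and 42.9 CPM in cortex and 2.60 and 3.76 CPM in thalamus. Each of the 3 genes was thus lowest in the thalamus among these 5 regions.

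*Pvalb* reached 2905 CPM at 3 days (interval 2835 to 2976) and 3037 CPM at 28 days (2961 to 3115) in reticular tiles, the highest level of the gene in any region. It stood at 240 and 386 CPM in cortex, at 228 and 162 CPM in thalamus, at 101 and 121 CPM in hippocampal tiles and at 73.0 and 67.1 CPM in striatum. Hypothalamus held only 22.0 and 33.6 CPM, so *Pvalb* and *Gad2* had opposite orders in hypothalamus and cortex. *Lhx6* was a low gene throughout, with its highest levels in cortex (12.5 and 16.6 CPM) and its lowest in thalamus (0.17 and 0.14 CPM, from 2 and 1 UMIs). *Reln* was highest in the tiles of the amygdala and piriform list at 3 days (65.1 CPM) and in striatum at 28 days (64.2 CPM), and was at 2.25 and 1.25 CPM in thalamus. The calcium-binding protein genes had another anatomy. *Calb2* was highest in thalamus, at 482 and 494 CPM, and in hypothalamus, at 269 and 394 CPM, and lowest of the 7 regions in striatum, at 5.47 and 7.78 CPM. *Calb1* was highest in thalamus at 3 days (388 CPM) and in striatum at 28 days (358 CPM against 138 CPM in the striatum of the 3-day section). That difference in striatum lies between 2 sections that may not hold the same level of the brain, and it was not tested.

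**Figure D2:**
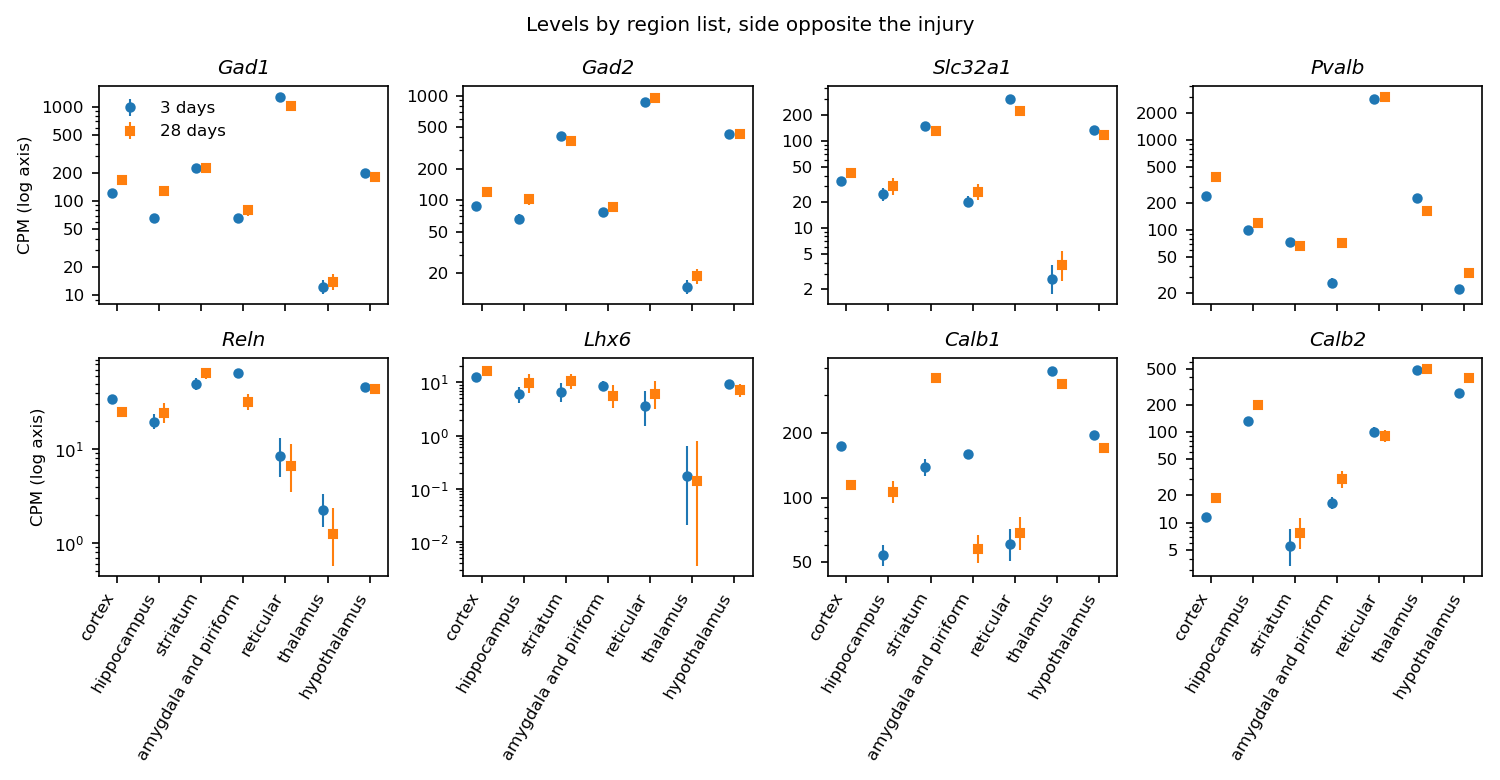
Level of each gene in tiles of 7 region lists on the side opposite the injury, in CPM on a log axis, at 3 days (circles) and 28 days (squares). Bars are 95% Poisson intervals of the UMI sums and cover counting error only. *Gad1*, *Gad2*, *Slc32a1* and *Pvalb* were highest in reticular tiles at both days, while *Calb2* was highest in thalamus.

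Over squares of 256 µm on the opposite side (322 squares at 3 days and 209 at 28 days, all of one library per day), the pattern of each gene was compared with those of 8151 genes. *Gad1*, *Gad2* and *Slc32a1* had each other as their closest pair of genes, with Pearson coefficients between 0.83 and 0.87 on log2(CPM + 1), and *Cygb* as the third, at 0.68 to 0.73. The 3 GABA genes thus shared 1 spatial pattern in both sections. *Pvalb* was closest to *Kcnab3* (0.70 and 0.68), *Cplx1* (0.59 and 0.62) and *Kcna1* (0.63 and 0.59). *Lhx6* was closest to *Nrgn* (0.65 and 0.66) and *Itpka*, *Reln* to *Gpr26* (0.60 and 0.59), *Neurl1a* and *Psd*, *Calb1* to *Lingo2* (0.62 and 0.57), *Nsg2* and *Mgat5b*, and *Calb2* to *Wdr6* (0.64 and 0.65), *Gprasp2* and *Impact*. None of these 5 genes therefore had another of the 8 among its 3 closest. The coefficients are descriptions across neighbouring squares that share library, depth and anatomy.

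Bins were also read one by one, after thinning each to 300 UMIs. In the opposite cortex, 13.8% (12.1 to 15.6) of bins with a *Pvalb* UMI also held a UMI of *Gad1*, *Gad2* or *Slc32a1* at 3 days, against 6.55% (6.25 to 6.86) of the bins without *Pvalb*. The 28-day section gave 17.7% (15.6 to 19.97) and 7.93% (7.45 to 8.43). In reticular tiles the 3-day section gave 58.9 and 30.4%, and the 28-day section 54.4 and 30.3%. In cortex and reticular tiles a GABA gene was thus found more often in bins with *Pvalb* than in the others. The hypothalamus of the 3-day section had the opposite order, with 8.64% (3.55 to 17.0) of 81 *Pvalb* bins against 19.3% (18.6 to 19.98) of other bins, while 28 days gave 25.3% (16.6 to 35.7) of 87 and 17.6% (16.8 to 18.4), with overlapping intervals. In thalamus, where GABA transcripts were rare, 3.25% (2.11 to 4.76) of *Pvalb* bins and 0.778% of other bins held one in the 3-day section, and 6.99% (4.66 to 10.0) and 0.717% in the 28-day section. A GABA gene was thus found more often in *Pvalb* bins there too. Most thalamic bins with a *Pvalb* UMI held none of the 3 genes at this depth, as did most such bins of the cortex. *Calb1* and *Calb2* bins of the thalamus held a GABA gene in 1.03 and 0.847% at 3 days and in 0.795 and 0.67% at 28 days, with intervals that overlapped those of the other bins. In the hippocampal tiles at 3 days, 0.714% (0.02 to 3.92) of *Calb2* bins held one, against 5.08% (4.43 to 5.80) of the others.

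Several of the 8 genes were layered in the opposite cortex. *Reln* was highest in the outer 128 µm, at 105 CPM at 3 days and 99.1 CPM at 28 days, and stood at 9.6 and 11.9 CPM at 896 to 1024 µm. *Gad2* had its highest level in the same outer band, at 155 and 281 CPM. *Calb1*, which upper-layer neurons express, peaked just below, with 350 and 355 CPM at 128 to 256 µm, and stood at 38.5 and 40.1 CPM at 768 to 896 µm. *Pvalb* had the reverse profile. It stood at 19.4 and 36.9 CPM in the outer band, and was highest with 539 CPM at 640 to 768 µm at 3 days and 459 CPM at 512 to 640 µm at 28 days. *Lhx6* went from 1.8 and 4.6 CPM in the outer band to 22.7 and 23.3 CPM at 640 to 768 µm. *Gad1* and *Slc32a1* were spread more evenly over the depth than *Pvalb* and *Lhx6*, with 82.7 to 195 CPM and 24.8 to 54.7 CPM at 3 days. At 28 days they stood at 93.2 to 226 CPM and 26.9 to 44.7 CPM. *Gad1* was highest at 640 to 768 µm at 3 days but in the outer band at 28 days. *Calb2* was highest at 256 to 384 µm at 3 days, with 16.7 CPM (13.7 to 20.2), and lowest at 640 to 768 µm, with 5.28 CPM (3.08 to 8.45). At 28 days it stood at 14.0 to 22.6 CPM, with overlapping intervals in all bands. The depth was measured from the edge of the tissue, and at 28 days only 55 tiles lay in the outer band against 215 at 3 days.

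**Figure D3:**
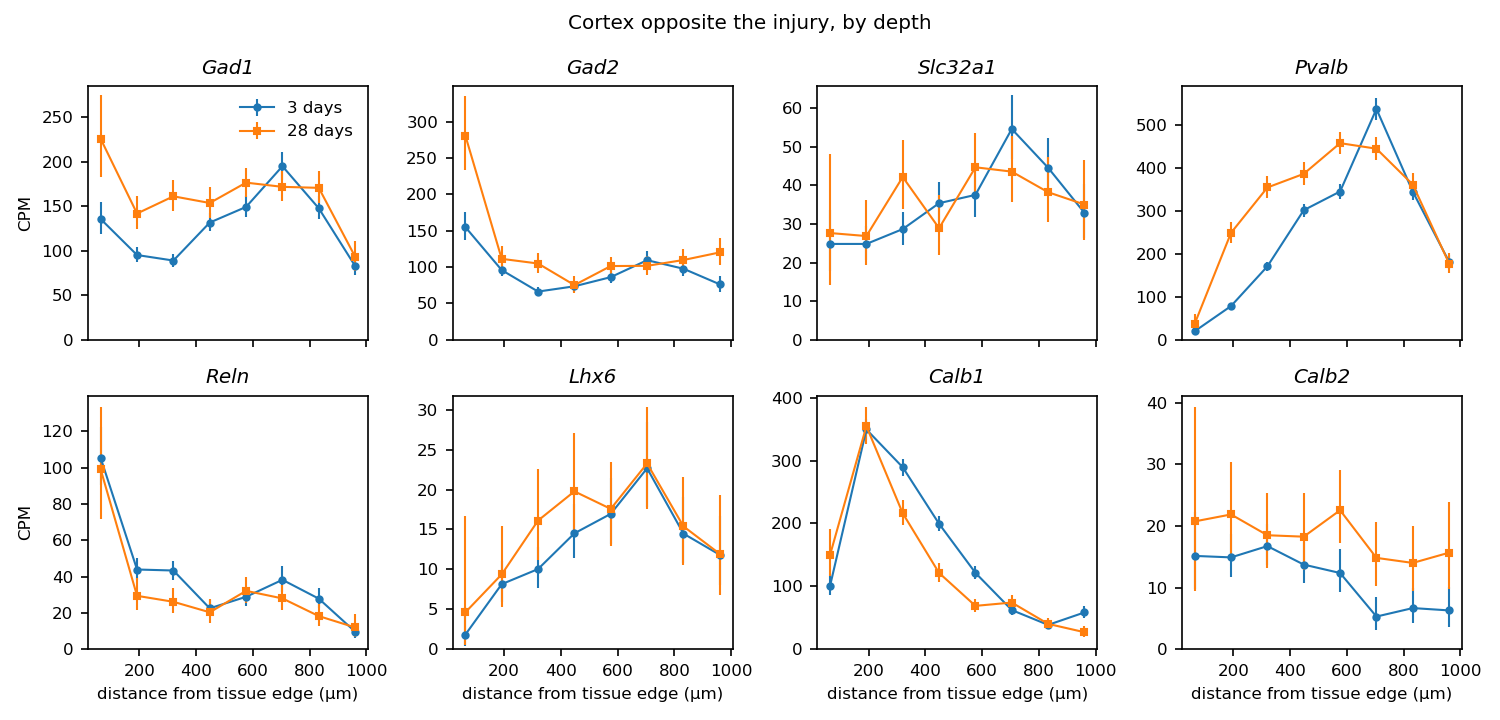
Level of each gene in CPM by distance from the tissue edge (µm, bands of 128 µm) in cortical tiles opposite the injury, at 3 days (circles) and 28 days (squares). Bars are 95% Poisson intervals. *Reln* was highest in the outer band, *Calb1* in the next band, and *Pvalb* and *Lhx6* below 512 µm.

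Perilesional cortex lay within 1000 µm of the lesion zone, and its reference was opposite cortex within 1000 µm of the reflected zone. Against this reference, the GABA genes were modestly higher at 3 days, and *Gad1*, *Slc32a1* and *Pvalb* were lower at 28 days. The area held 275 tiles against 743 at 3 days and 448 against 765 at 28 days. The 2 sides are not matched positions. Reflected across the midline, the opposite tiles covered 184 array tiles without tissue at 3 days and 551 at 28 days. *Gad1* stood at 214 against 146 CPM at 3 days, a log2 ratio of injured to opposite side of 0.55 (0.44 to 0.66). At 28 days it stood at 119 against 161 CPM, -0.43 (-0.54 to -0.32). *Gad2* stood at 133 against 95.9 CPM at 3 days, 0.47 (0.33 to 0.61), and at 109 CPM on both sides at 28 days, with a ratio whose interval (-0.13 to 0.12) held 0. *Slc32a1* stood at 53.3 against 39.9 CPM, 0.42 (0.20 to 0.64), and at 29.1 against 41.7 CPM, -0.52 (-0.74 to -0.29). All 3 genes were thus higher on the injured side at 3 days by less than 2-fold. In mirrored pairs of tiles (198 pairs at 3 days and 123 at 28 days), *Gad1* was again higher at 3 days (0.44, 0.27 to 0.61) and lower at 28 days (-0.23, -0.45 to -0.01), while *Slc32a1* lay at -0.04 (-0.38 to 0.30) and -0.30 (-0.76 to 0.15).

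For *Pvalb*, the direction depended on which tiles of both sides were compared. It stood at 410 against 359 CPM at 3 days, 0.19 (0.12 to 0.27), but for 28 days at 205 against 384 CPM, -0.90 (-0.98 to -0.82). In mirrored tiles it was at 304 against 409 CPM at 3 days, -0.43 (-0.54 to -0.31), and for 28 days at 425 against 422 CPM, 0.01 (-0.12 to 0.14). The 2 readings thus had opposite signs at 3 days, and the lower level of 28 days was not seen in mirrored tiles, which lay nearer the midline. The perilesional tiles lay on average 0.651 mm from the midline against 1.6 mm on the opposite side at 3 days, and 2.48 against 1.62 mm at 28 days. By distance from the tissue edge, perilesional *Pvalb* at 28 days stood at 330 against 355 CPM at 256 to 384 µm and 366 against 387 CPM at 384 to 512 µm, the second value of each pair being that of all opposite cortex. It stood at 151 against 459 CPM at 512 to 640 µm, 73.3 against 446 CPM at 640 to 768 µm and 113 against 362 CPM at 768 to 896 µm. At 896 to 1024 µm it stood at 144 (114 to 180) against 178 (156 to 202) CPM, with overlapping intervals. At 128 to 256 µm it stood at 158 against 249 CPM, and in the outer 128 µm it was higher, at 96.1 against 36.9 CPM. An open margin of the lesion would count as an edge of the tissue. In the outer band *Reln* stood at 26.5 against 99.1 CPM and *Gad2* at 66.3 against 281 CPM. Equal bands may therefore not be equal cortical depths on the 2 sides. By distance from the nearest edge, the *Pvalb* gap of that day was widest from 512 to 896 µm and not present in every band. *Calb1* behaved alike, with 54.5 against 152 CPM at 3 days, -1.48 (-1.67 to -1.30), and 157 against 118 CPM at 28 days, 0.41 (0.30 to 0.52), but 0.24 (-0.03 to 0.52) and -0.35 (-0.62 to -0.08) in mirrored tiles. *Reln* was at 25.1 against 22.8 CPM and at 32.4 against 24.3 CPM, *Lhx6* at 15.6 against 12.4 CPM and at 16.4 against 16.6 CPM, and *Calb2* at 14.2 against 11.1 CPM and at 25.3 against 18.3 CPM. Of these 3 genes only *Reln* (0.41, 0.17 to 0.65) and *Calb2* (0.47, 0.19 to 0.74) had intervals that left out 0, both at 28 days, and in mirrored tiles of that day their intervals held 0.

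A gene was called lower or higher on the injured side at a 2-fold ratio with an interval that left out 0, among genes with at least 200 UMIs over both areas. At 3 days 1 of the 8 genes, *Calb1*, was called lower in perilesional cortex, and none higher, where 0.64% of all genes tested were called lower and 3.77% higher. At 28 days none of the 8 was called in either direction, where 0.243% of all genes were called lower and 0.721% higher. In mirrored tiles none of the 5 genes that passed 200 UMIs at 3 days was called (0.174% of all genes lower, 3.12% higher), nor any of the 4 that passed at 28 days (0.055 and 0.458%). Genes of other cells moved in the same tiles. All 3 of *Gfap*, *Aqp4* and *Vim* were higher at both days, with log2 ratios from 2.17 to 3.53 at the earlier and from 1.02 to 2.47 at the later day. All 3 myelin genes were higher at 3 days (summed 0.49) and lower at 28 days (-0.53), and turned in mirrored tiles (-0.51 and 0.59 summed). Of 5 excitatory neuron genes 4 were lower at 3 days (summed -0.42), but in mirrored tiles only 1 was (summed -0.03, -0.06 to 0.002). Of 5 genes of neurons of every kind, 3 were lower and 2 higher at 3 days (summed -0.17). At 28 days 2 were lower and 1 higher (summed -0.27). The part of these genes in the CPM of the 8 genes was not tested. Of 26 other genes of GABAergic neurons, 25 had at least 20 UMIs in perilesional cortex. *Vip* (-1.09, 207 against 1123 UMIs) and *Cort* (-2.47, 5 against 77 UMIs), peptides of other interneuron classes, were called lower at 3 days and none higher, where 1.23% of all genes with at least 20 UMIs were called lower and 9.02% higher. At 28 days *Syt2*, a synaptotagmin of fast-releasing terminals, was called lower (-1.15, 296 against 1203 UMIs) and *Nos1* higher (1.46), where 0.552% of all genes were called lower and 3.17% higher. In mirrored tiles 2 of 25 were called lower at 3 days, *Cort* (-2.10, 4 against 16 UMIs) and *Tac1* (-1.34), and 1 higher, *Htr3a* (1.24, 23 against 8 UMIs), where 0.705% of all genes were called lower and 8.78% higher. None of 24 was called there at 28 days (0.356 and 2.83%). *Vip* at 3 days (0.06) and *Syt2* (-0.18) and *Nos1* (0.88) at 28 days thus did not reach 2-fold in mirrored tiles. The median log2 ratio of the 25 genes was -0.18 at 3 days and 0.02 at 28 days, against 0.05 and 0.02 over all genes with at least 20 UMIs.

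In tiles inside the lesion zone that still had a cortical gene pattern, *Gad1*, *Gad2*, *Slc32a1* and *Pvalb* were lower at both days, and at 3 days *Pvalb* more so than *Gad2*. At 3 days *Pvalb* had 22 UMIs in 79 tiles on the injured side against 899 UMIs in 174 opposite tiles, or 27.6 against 325 CPM, a log2 ratio of -3.53 (-4.24 to -2.95). *Gad1* had 23 against 419 UMIs, 28.9 against 152 CPM, -2.36 (-3.07 to -1.79). *Gad2* had 33 against 219 UMIs, 41.4 against 79.2 CPM, -0.92 (-1.51 to -0.40). The interval of *Gad2* did not overlap those of *Pvalb* and *Gad1*, so the 2 enzymes of GABA synthesis did not stand at the same ratio. *Slc32a1* had 13 against 112 UMIs (-1.26, -2.27 to -0.48), and *Lhx6* 2 against 40 UMIs (-2.22, -5.62 to -0.58). *Reln* (10 against 53 UMIs), *Calb1* (38 against 159) and *Calb2* (3 against 24) had intervals that held 0, although in mirrored tiles *Calb1* was higher at this day (33 against 23 UMIs, 1.20, 0.40 to 2.05).

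At 28 days *Pvalb* had 273 against 773 UMIs in 157 and 103 tiles, or 152 against 508 CPM, -1.74 (-1.94 to -1.54). *Gad1* stood at 70.2 against 195 CPM, -1.47 (-1.79 to -1.17), *Gad2* at 69.1 against 132 CPM, -0.93 (-1.27 to -0.61), and *Slc32a1* at 26.8 against 42.1 CPM, -0.65 (-1.22 to -0.09). All 4 were lower. *Reln* (-1.05, -1.99 to -0.19) and *Lhx6* (-1.48, -2.62 to -0.50) were lower as well, each from fewer than 51 UMIs over both areas. *Calb1* was the exception, with 61.9 against 27.6 CPM, 1.15 (0.64 to 1.71), but it stood at -0.62 (-2.20 to 0.71) in 30 mirrored pairs of tiles. In mirrored tiles *Pvalb* was at -3.29 at 3 days and -1.56 at 28 days, *Gad1* at -2.46 and -2.30, and *Gad2* at -0.29 (-1.03 to 0.38) and -2.05 (-3.07 to -1.24). *Pvalb* and *Gad1* thus kept their direction, and *Gad2* at 3 days had an interval that held 0. At 28 days *Gad2* lay below *Pvalb* there, unlike against the wider opposite cortex, but its interval held the *Pvalb* value, so the order is not resolved.

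With at least 200 UMIs, 3 of the 8 genes (*Gad1*, *Gad2*, *Pvalb*) could be called in the cortex of the zone at each day, and *Gad1* and *Pvalb* were called lower at both, where 9.9% of all genes were called lower and 6.78% higher at 3 days and 6.27 and 7.34% at 28 days. Of the other GABAergic genes, 22 had at least 20 UMIs at 3 days, and 11 of them were called lower and 2 higher, where 7.26% of all genes were called lower and 17.1% higher. Among the 11 were *Sst*, the somatostatin gene (45 against 471 UMIs, -1.58), the potassium channel genes of fast-spiking neurons *Kcnc1* (-1.47) and *Kcnc2* (-2.41), and *Syt2* (2 against 146 UMIs). *Nos1* (1.48) and *Sox6* (1.28) were higher, and *Sox6* is also a gene of oligodendrocyte precursors. At 28 days 5 of 21 were called lower (*Erbb4*, *Kcnc1*, *Kcnc2*, *Nxph1*, *Syt2*) and none higher, where 5.19% of all genes were called lower and 14.1% higher. The median of the list was -1.36 at 3 days and -0.49 at 28 days, against 0.11 and 0.00 over all genes. Genes of neurons of every kind were lower in 3 of 5 at 3 days and in 5 of 5 at 28 days, and all 3 astrocyte genes were higher at both days, by up to 6.17. Whether the 8 genes differed from neuronal genes at large in these tiles was not tested.

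**Figure D4:**
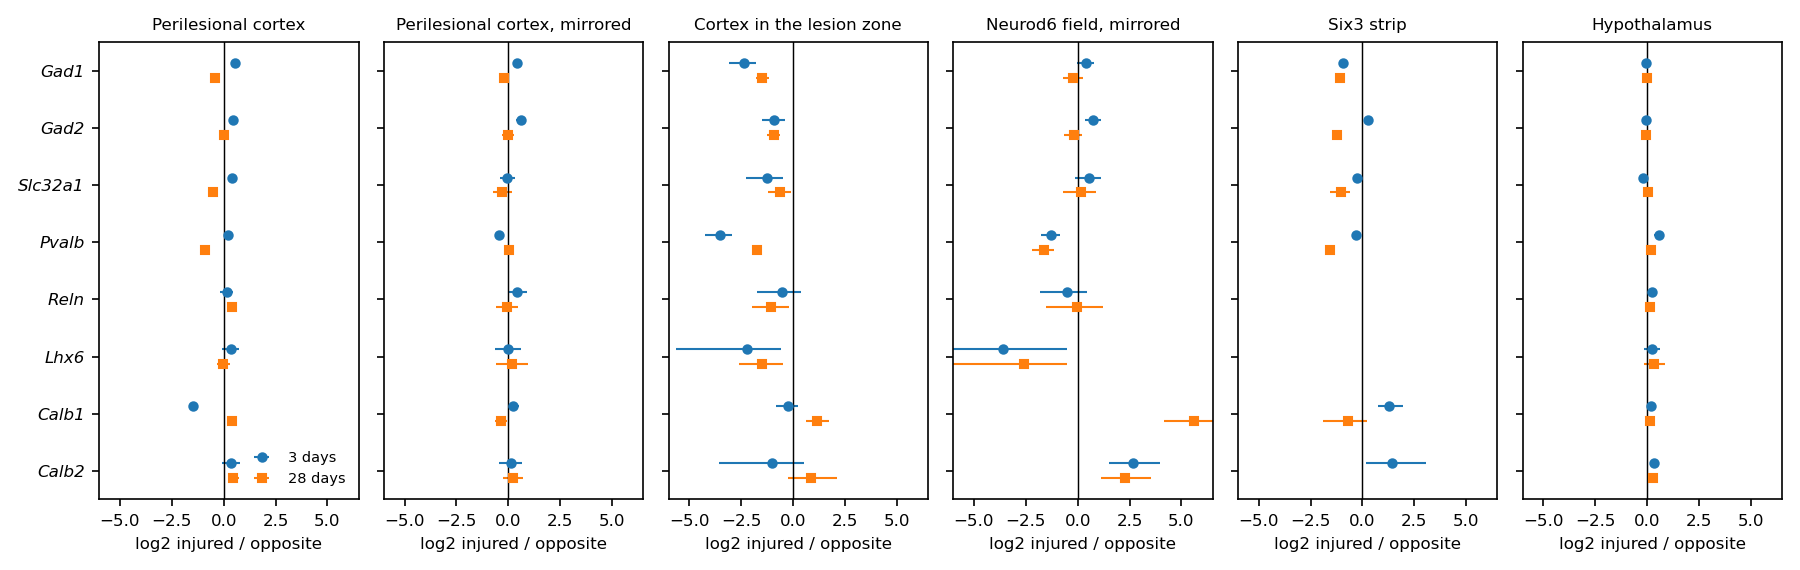
Log2 ratio of injured to opposite side for each gene in 6 areas at 3 days (circles) and 28 days (squares), where a gene had 20 or more UMIs in the area and its counterpart. Bars are exact 95% intervals of counting error, drawn to the edge of the axis where they run beyond it, and the line marks no difference. Relative to all UMIs, *Pvalb* was lower in the cortex of the zone and in the Neurod6 field at both days and in the Six3 strip mainly at 28 days, while hypothalamic GABA genes lay near 0.

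For the hippocampus, the tiles that the hippocampal list (*C1ql2*, *Prox1*, *Fibcd1* and others) assigned on the injured side went against their label. *Neurod6*, a gene of hippocampal and cortical excitatory neurons chosen after its values were seen, had 21 against 2584 UMIs in them at 3 days and 21 against 939 UMIs at 28 days. In these tiles *Gad1* stood at 95.2 against 66.7 CPM at 3 days (0.52, 0.28 to 0.75), and for 28 days at 69.7 against 128 CPM (-0.87, -1.21 to -0.55), and *Pvalb* at 119 against 101 CPM (0.23, 0.03 to 0.43) and at 26.5 against 121 CPM (-2.17, -2.71 to -1.70). *Calb2* stood at 111 against 131 CPM in the 3-day section and at 508 against 197 CPM in the 28-day section. These values describe tiles that resemble hippocampus by other genes and are not taken as hippocampus.

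The site was therefore also taken by position, as the field of high *Neurod6* in the opposite hippocampus reflected across the midline. It held 100 injured against 106 opposite tiles at 3 days, 74 of the 100 in the lesion zone, and 63 against 92 at 28 days, 29 of the 63 in the zone, while 29 reflected tiles of that day held no tissue. The injured field held fewer UMIs per bin (539 against 1768 at 3 days and 751 against 1329 at 28 days), so values are given both relative to all UMIs and per bin. *Pvalb* had 46 against 411 UMIs at 3 days, 55.1 against 137 CPM, -1.30 (-1.79 to -0.87), and 33 against 310 UMIs at 28 days, 50.2 against 159 CPM, -1.64 (-2.22 to -1.14). *Lhx6* had 0 against 21 UMIs at 3 days, at least 1.95-fold lower at a floor of 3 UMIs, and 1 against 26 UMIs at 28 days (-2.57, -8.49 to -0.52). Both interneuron genes were thus lower on either day.

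At 3 and 28 days *Gad1* had 69 against 190 and 51 against 176 UMIs, *Gad2* 92 against 198 and 59 against 203, and *Slc32a1* 31 against 78 and 20 against 55. Relative to all UMIs, *Gad2* was higher at 3 days (0.74, 0.37 to 1.10), and the other 5 ratios, from -0.21 to 0.53, had intervals that held 0. Per bin, the log2 ratios of *Gad1*, *Gad2* and *Slc32a1* were -1.32, -0.97 and -1.19 for 3 days, followed by -1.03, -1.03 and -0.69 for 28 days, and those of *Pvalb* were -3.01 and -2.46. The direction of *Gad2* at 3 days therefore turned with the scale. *Gad1* and *Slc32a1* of that day were lower per bin, but their relative intervals held 0. *Pvalb* was lower on both scales. *Calb1* had 11 against 5 UMIs in the 3-day and 56 against 3 UMIs in the 28-day section (5.58, 4.17 to 8.11), and *Calb2* 18 against 10 and 18 against 11 UMIs, with higher relative levels at both days (2.66 and 2.26). *Reln* had 9 against 49 and 7 against 22 UMIs, and both intervals held 0.

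In the Neurod6 field 3 of the 8 genes (*Gad1*, *Gad2*, *Pvalb*) passed 200 UMIs at each day, and *Pvalb* was called lower at both, where 20.7% of all genes were called lower and 11.7% higher at 3 days and 18.3 and 6.87% at 28 days. A call for 1 of 3 genes is near that background. All 5 genes of neurons of every kind were lower in the field at both days (-3.01 to -2.37 and -2.59 to -1.04), and all 3 myelin and all 3 astrocyte genes were higher. Since the field was placed on the opposite tiles highest in a gene of excitatory neurons, lower neuronal genes on the reflected side follow in part from that choice, and the GABA genes are not ranked against them. Of the other GABAergic genes 6 of 18 were called lower and 5 higher at 3 days, where 12.7% of all genes with at least 20 UMIs were called lower and 23.7% higher. At 28 days 6 of 19 were called lower and 2 higher, where 9.91 and 19.1% of all genes were. The lower genes at both days included *Kcnc1*, *Kcnc2* and *Syt2*. The higher ones at 3 days included the homeobox genes *Dlx1*, *Dlx2* and *Dlx5*, and *Sox6*.

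The reticular thalamic nucleus was followed as the strip of tiles around the highest *Six3*, a transcription factor gene of its neurons, on each side. This strip was drawn after the maps were seen. At 3 days it held 131 tiles (0.537 mm2) on the injured and 113 tiles (0.457 mm2) on the opposite side, and none lay in the lesion zone. At 28 days it held 59 tiles (0.239 mm2) on the injured and 122 tiles (0.494 mm2) on the opposite side, and 57 of the 59 lay in the zone. *Pvalb* had 7931 UMIs on the injured and 6131 UMIs on the opposite side at 3 days. At 28 days it had 545 and 5601 UMIs, so the injured strip held 9.73% of the opposite total. That share combines strip size, depth and level, as the injured strip of 28 days held 368 UMIs per bin against 616 opposite. Each strip was also cut against the *Six3* values of its own side, so its size and total depend on that cut. In CPM *Pvalb* stood at 3872 against 4771 at 3 days, -0.30 (-0.35 to -0.25). At 28 days it stood at 1590 against 4714, -1.57 (-1.70 to -1.44). The opposite strip had about the same level at both days, and the injured strip of the 28-day section was both smaller and lower per UMI.

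*Gad1* had 1999 against 2437 UMIs in the strip at 3 days, 976 against 1896 CPM, -0.96 (-1.04 to -0.87), and 241 against 1774 UMIs at 28 days, 703 against 1493 CPM, -1.08 (-1.29 to -0.89). *Gad2* was higher on the injured side at 3 days, with 2515 against 1292 UMIs, 1228 against 1005 CPM, 0.29 (0.19 to 0.39), and lower at 28 days, with 178 against 1451 UMIs, 519 against 1221 CPM, -1.23 (-1.47 to -1.01). *Slc32a1* stood at 307 against 363 CPM at 3 days, -0.24 (-0.41 to -0.06). The 28-day section had 134 against 281 CPM, -1.05 (-1.54 to -0.62). The injured strip of the 3-day section held more UMIs per bin (977 against 720), and per bin the ratios of that day were 0.14 for *Pvalb*, 0.20 for *Slc32a1*, -0.52 for *Gad1* and 0.73 for *Gad2*. The direction of *Pvalb* and *Slc32a1* at 3 days therefore turned with the scale. At 28 days all 4 genes were lower by 2-fold or more. *Reln* and *Lhx6* were near absent from the strip, with at most 8 and 2 UMIs on a side, and *Calb1* had 123 against 31 UMIs at 3 days (1.30, 0.74 to 1.93) and 10 against 58 UMIs at 28 days. *Calb2* had at most 27 UMIs on a side.

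**Figure D5:**
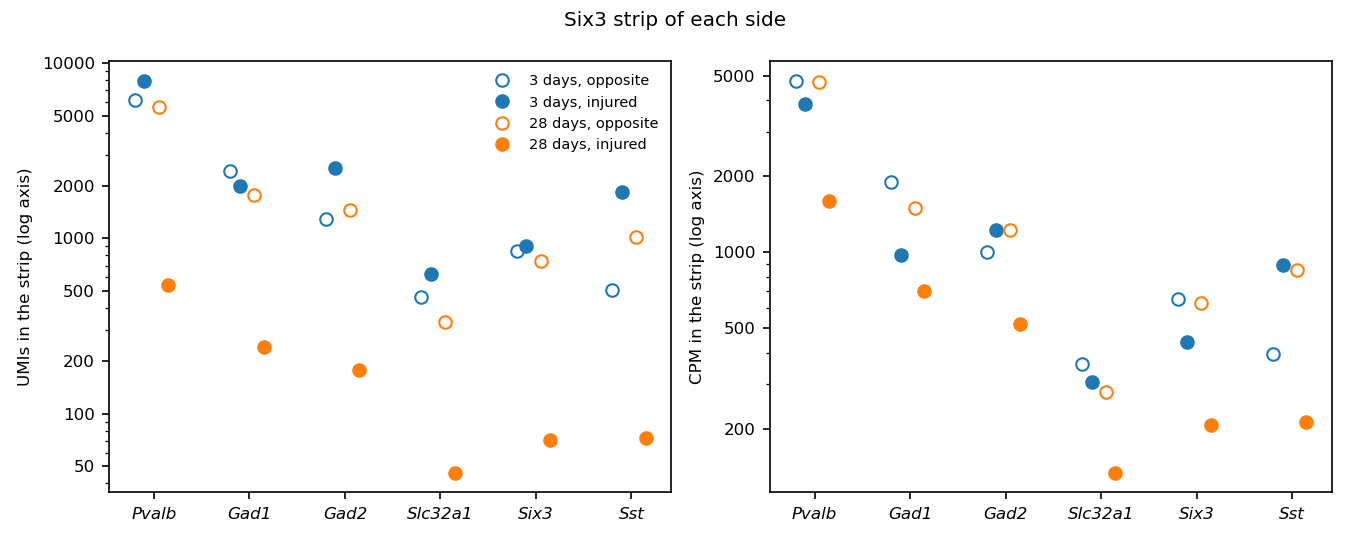
UMIs (left) and CPM (right), both on log axes, of 4 of the 8 genes and of *Six3* and *Sst* in the Six3 strip of each side at 3 days (blue) and 28 days (orange), with the opposite side as open and the injured side as filled circles. The strip was drawn from *Six3*, whose values are shown only for its size. At 28 days the injured strip lay below the opposite strip for every gene shown.

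At 3 days none of the 4 genes with at least 200 UMIs in the strip was called, where 1.03% of all genes were called lower and 1.05% higher, and at 28 days all 4 (*Gad1*, *Gad2*, *Slc32a1*, *Pvalb*) were called lower, where 9.68% of all genes were called lower and 3.34% higher. Among bins thinned to 300 UMIs, 62.7% (60.5 to 64.9) held a *Pvalb* UMI in the injured and 66.3% (63.7 to 68.7) in the opposite strip at 3 days, and 36.6% (32.6 to 40.6) and 71.4% (69.1 to 73.6) at 28 days. Thinning left out 136 and 359 bins at 3 days and 355 and 374 bins at 28 days, and without thinning the shares were 81.1 and 73.4% and 31.5 and 78.0%. In the hypothalamus opposite the injury, where *Pvalb* is low, the thinned share was 0.657% at 3 days and 0.987% at 28 days. *Pvalb* bins were thus less frequent in the injured strip of 28 days at equal depth too. Of the other GABAergic genes, 2 of 18 were called lower at 3 days (*Maf*, *Syt2*) and 4 higher (*Dlx1*, *Erbb4*, *Sox6*, *Sst*), where 2.07% of all genes with at least 20 UMIs were called lower and 3.17% higher. At 28 days 8 of 17 were called lower and 2 higher, where 5.85 and 8.47% of all genes were. *Sst* had 1831 against 507 UMIs at 3 days (1.18, 1.04 to 1.32) and 73 against 1013 UMIs at 28 days (-1.99, -2.36 to -1.66). Genes of neurons of every kind were lower in 4 of 5 in the strip at 28 days, by at most 0.96, and *Gfap* was higher by 5.74. The strips lay 1.2 mm from the midline on the injured and 2.0 mm on the opposite side in the 3-day section, and 1.79 and 1.65 mm in the 28-day section, so the strip of the 3-day section was not at mirrored positions.

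In CPM the tiles of the reticular list gave the same directions for *Gad1*, *Slc32a1* and *Pvalb* at 3 days (-0.94, -0.45 and -0.33) and for the 3 genes and *Gad2* at 28 days (-2.01, -1.76, -2.42 and -2.12), with *Gad2* at -0.02 (-0.10 to 0.06) at 3 days. The list and the strip share *Six3*, so the list is no independent check of the strip. The list does not contain the strip on the injured side of 28 days: its 106 tiles, 81 of them in the lesion zone, held 413 *Pvalb* and 185 *Gad1* UMIs, fewer than the 59 tiles of the strip. Of the 8 genes 6 passed 200 UMIs at 3 days and none was called, where 0.467% of all genes were called lower and 0.665% higher. At 28 days 5 passed and 4 were called lower, where 7.12 and 4.06% of all genes were called lower and higher.

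*Gad2* and *Gad1*, which catalyse the same reaction, did not keep 1 ratio across areas. The ratio itself depends on the probes of each gene, so only its differences between areas are read. In the Six3 strip at 3 days there were 1.26 *Gad2* UMIs per *Gad1* UMI (1.19 to 1.33) on the injured and 0.53 (0.50 to 0.57) on the opposite side. At 28 days the ratios were 0.74 (0.61 to 0.90) and 0.82 (0.76 to 0.88). In the whole lesion zone they were 1.81 (1.60 to 2.05) against 0.64 (0.58 to 0.69) in the reflected zone at 3 days and 1.03 (0.92 to 1.15) against 0.85 (0.80 to 0.91) at 28 days. In the cortex of the zone they were 1.43 (0.82 to 2.56) against 0.52 (0.44 to 0.62), and 0.98 (0.76 to 1.27) against 0.68 (0.56 to 0.81). In these areas the injured side thus held more *Gad2* per *Gad1* at 3 days. So did the thalamus (2.77, 1.87 to 4.20, against 1.20, 0.96 to 1.52), striatal tiles (2.82 against 1.82) and the reticular list (1.30 against 0.69). The intervals overlapped at 3 days in the hippocampal list, the amygdala and piriform list and the Neurod6 field. Perilesional cortex had 0.62 (0.56 to 0.68) and 0.66 (0.61 to 0.70) at 3 days, with overlapping intervals, but 0.91 (0.83 to 1.004) and 0.68 (0.64 to 0.73) at 28 days. In mirrored perilesional tiles of 28 days the intervals overlapped (0.69, 0.57 to 0.82, and 0.59, 0.50 to 0.70). Hypothalamus, away from the impact, had 2.21 and 2.16 at 3 days and 2.27 and 2.39 at 28 days, with overlapping intervals. Regions differ in this ratio on the opposite side (striatum 1.82, hypothalamus 2.16 and cortex near the reflected zone 0.66 at 3 days). The part of a different mix of regions or positions in any of these areas was not tested.

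Over the whole lesion zone, against the zone reflected across the midline, *Pvalb* had 355 against 3712 UMIs at 3 days (-2.76, -2.92 to -2.61) and 1507 against 6460 UMIs at 28 days (-1.94, -2.02 to -1.86). *Gad1* was at -1.15 and -1.70, *Gad2* at 0.36 and -1.44, and *Slc32a1* at -0.46 and -1.33. *Calb2* had 53 against 569 UMIs and 127 against 1021 UMIs (-2.79 and -2.84). Of the members with at least 200 UMIs, 3 of 6 were called lower at 3 days and 6 of 7 at 28 days, where 8.58% of all genes were called lower and 11.5% higher at 3 days and 7.96 and 10.7% at 28 days. Relative to all UMIs *Gad2* was thus higher at 3 days, but it had 738 against 888 UMIs there and was lower per bin (-0.27), so its direction at that day turned with the scale. *Pvalb*, *Gad1*, *Slc32a1* and *Calb2* were lower at both days. In the same tiles all 5 genes of neurons of every kind were lower (-2.14 to -0.89 at the earlier and -1.49 to -1.07 at the later day) and all 3 astrocyte genes higher (0.66 to 2.97 and 2.92 to 4.92), and their part in these ratios was not tested.

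In the hypothalamus, away from the impact, the left-right differences of the GABA genes were small. *Gad1* stood at 187 against 197 CPM at 3 days, -0.07 (-0.16 to 0.01), and at 178 CPM on both sides at 28 days. *Gad2* stood at 415 against 427 CPM and at 404 against 427 CPM, and *Slc32a1* at 118 against 134 CPM and at 123 against 118 CPM. The widest of these 6 differences was -0.18 (-0.29 to -0.08) on the log2 scale, of *Slc32a1* at 3 days. None of the 8 genes at 3 days and none of the 7 that passed 200 UMIs at 28 days was called, where 0.716% of all genes were called lower and 0.093% higher at the earlier and 0.049 and 0.127% at the later day. *Pvalb*, low in this region, stood at 32.5 against 22.0 CPM at 3 days, 0.57 (0.33 to 0.80), and at 38.2 against 33.6 CPM at 28 days, *Calb2* at 334 against 269 CPM and at 488 against 394 CPM (0.31 at both days). The hypothalamic tiles lay 0.901 against 1.35 mm from the midline at 3 days and 1.32 against 1.17 mm at 28 days. Excitatory neuron genes summed were at -0.81 and 0.43 there, and astrocyte genes at 0.77 and 0.19. The 2 sides are thus not matched positions in this region.

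In tiles of the striatal list *Gad2* stood at 595 against 411 CPM at 3 days, 0.53 (0.41 to 0.65), and *Pvalb* at 19.1 against 73.0 CPM, -1.91 (-2.54 to -1.38), where 71 of the 105 injured tiles lay in the lesion zone. The injured tiles lay 1.81 mm from the midline against 2.93 mm, and capture of that side ended at 2.08 mm. Astrocyte genes summed were at 4.62 and excitatory neuron genes at -0.91, so these tiles are not taken as matched striatum. At 28 days *Gad2* stood at 411 against 367 CPM, though lower per bin (-0.33), and *Pvalb* at 39.9 against 67.1 CPM, -0.74 (-1.17 to -0.35). *Slc32a1* was lower at 3 days (85.8 against 148 CPM) and equal within the interval at 28 days (130 against 131 CPM), so the 3 GABA genes did not share a direction in these tiles. Of the 6 members that passed 200 UMIs in these tiles, *Pvalb* was called lower at 3 days (2.3% of all genes lower, 4.2% higher) and none was called at 28 days (0.42 and 1.07%). At 28 days the tiles lay 2.93 against 2.61 mm from the midline, and astrocyte genes summed were at 3.02. In thalamus *Pvalb* had 132 against 2627 UMIs at 3 days, 22.1 against 228 CPM, and 293 against 1162 UMIs at 28 days, 59.1 against 162 CPM, while *Calb2* was higher at both days, with 934 against 482 CPM and 706 against 494 CPM. *Pvalb* was called lower in thalamus at both days, 1 of 4 and 1 of 3 members that passed, where 0.663% of all genes were called lower and 0.714% higher at 3 days and 0.0666 and 1.22% at 28 days. The thalamic tiles lay nearer the midline on the injured side (0.599 against 0.941 mm at 3 days and 0.647 against 0.791 mm at 28 days), and how far this shift goes with the *Pvalb* and *Calb2* ratios was not tested. Of the injured thalamic tiles, 35 of 320 at 3 days and 155 of 502 at 28 days lay in the lesion zone, and astrocyte genes summed were at 0.57 and 2.52. In the amygdala and piriform tiles at 3 days, *Pvalb* stood at 332 against 25.7 CPM, but only 95 injured tiles were found against 435, at 1.46 mm against 2.82 mm from the midline, and the injured side of that section ended before the position of the opposite tiles. These injured tiles went against their label, with excitatory neuron genes summed at -1.71 and astrocyte genes at 2.78, and are not taken as amygdala or piriform cortex. At 28 days *Pvalb* was at 33.5 against 72.4 CPM there, *Reln* at 54.7 against 32.0 CPM and *Calb1* at 161 against 58.0 CPM, from tiles at 2.72 mm on the injured and 1.65 mm on the opposite side, so these are not matched positions either.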

How the data were processed

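Per the labels and file headers, the authors ran Space Ranger 4.0.1 on Visium HD libraries of PFA-fixed, paraffin-embedded brain and deposited UMI counts for each gene in each 16 µm bin, with build mm10 named in the submitters' processing notes. The counts were not normalized. The 2 samples, 1 section each, are the groups at 3 and 28 days, and the study's methods give 1 mouse for each. Genes and lists were chosen with earlier results of these data known. Cx3cr1 and Xist were not analysed here. Some listed genes are counted within their list but not reported here by name.

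Only bins of at least 100 UMIs were used, which kept 119617 bins at 3 days and 103316 at 28 days. Bins were summed in tiles of 4 by 4. The injured side was given by array column (under 130 at 3 days, under 240 at 28 days), and the midline is that column. A tile took the region with the highest score (at least 0.25) for its list, from genes with at least 500 UMIs, over 3 by 3 tiles. The lesion zone was the share of 6 phagocyte genes (Cd68, Lyz2, Ctsz, Lgals3, Cd52, Laptm5) over 5 by 5 tiles beyond the 99th percentile found opposite, in patches of at least 25 tiles. The Six3 strip was the largest patch over 50% of the 99.5th percentile of its side, and the Neurod6 field the same on the opposite side, reflected. The strip, the field and the mirrored tiles were chosen after seeing the data.

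UMI sums were expressed as CPM, and sides were set against each other as a log2 ratio after adding 0.5 UMI to each sum. Ratios have exact conditional binomial intervals, levels exact Poisson and shares exact (Clopper-Pearson) intervals, all 95% and for counting error only. The calculation was tested on simulated data. All 8 genes, the listed genes and, for each gene, the 3 with the closest pattern were named (genes with at least 1000 UMIs on the opposite side of both sections). Calls needed a 2-fold ratio and at least 200 UMIs, or 20 for the list of 26 other GABAergic genes. Alternatives were UMIs per bin, TMM factors (edgeR 4.0.16, R 4.3.3), neuronal scaling, other filters, windows, zones and references. Python 3.11.15, numpy 2.4.6, pandas 2.3.3 and scipy 1.17.1 were used.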

Additional observations from a re-analysis of the deposited data

Results flagged for a closer look

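Signs at 3 and 28 days were compared only in perilesional cortex, the hippocampal list and the reticular list. For 10 results there the log2 ratio of injured to opposite side had opposite signs, each with an interval that left out 0. Areas not searched also hold such cases, among them *Gad2* in the Six3 strip. The difference between the days was not tested, since each day is 1 section and the sections were captured at different positions about the midline. In perilesional cortex the ratio was 0.55 at 3 days and -0.43 at 28 days for *Gad1*, 0.42 and -0.52 for *Slc32a1*, and 0.50 and -0.28 for *Gad1*, *Gad2* and *Slc32a1* summed. It was 0.19 and -0.90 for *Pvalb* and -1.48 and 0.41 for *Calb1*. In mirrored tiles these values were -0.43 and 0.01 for *Pvalb* and 0.24 and -0.35 for *Calb1*. The mirrored intervals of *Pvalb* at 28 days and of *Calb1* at 3 days held 0. *Slc32a1* at 3 days was at -0.04 in mirrored tiles, with an interval that held 0. In the tiles of the hippocampal list, which lacked *Neurod6* on the injured side, the ratio was 0.52 and -0.87 for *Gad1*, 0.60 and -0.52 for the 3 genes summed, 0.23 and -2.17 for *Pvalb*, -0.37 and 0.69 for *Calb1*, and -0.24 and 1.36 for *Calb2*.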

How the results depend on the processing

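The summed *Gad1*, *Gad2* and *Slc32a1* (here the GABA sum) and *Pvalb* were recomputed in perilesional cortex, hippocampal list and reticular list under each alternative, with 60 values within the main interval and 52 outside it. The midline through *Gbx2* fell on the column already used. Its values therefore repeat the main ones and are no check, although they count among the 60. No paired analysis was possible because each group has 1 section. The cause of the shifts was not tested.

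In perilesional cortex the GABA sum (0.50 at 3 days, -0.28 at 28 days) kept its sign under every alternative run. At 3 days it was 0.67 per neuronal UMI, 0.33 with windows of 5 by 5 tiles, 0.72 against all opposite cortex, 0.38 within 500 µm of the zone, 0.62 with the zone at the 95th percentile and 0.42 in mirrored tiles. At 28 days it was -0.38 per bin, -0.0092 per neuronal UMI, -0.36 against all opposite cortex and -0.16 in mirrored tiles. Scaled to neuronal UMIs, the sum at 28 days thus showed almost no difference, although its sign counts as kept. *Pvalb* at 3 days (0.19) was 0.36, -0.0945, 0.78, 0.40, 0.30 and -0.43 under the same 6 settings as the GABA sum at 3 days. At 28 days (-0.90) it was -0.999 per bin, -0.63 per neuronal UMI, -0.68 within 500 µm, -1.05 with the zone at the 95th percentile and 0.0096 in mirrored tiles.

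In the hippocampal list at 3 days the GABA sum (0.60) was 0.18 per bin, 0.83 with larger windows and -0.20 with the opposite area reflected, and *Pvalb* (0.23) was -0.19, 1.23 and -1.39 under these, and -1.30 and -1.01 in the Neurod6 field at 50 and 30% of the percentile. At 28 days the GABA sum (-0.52) was -1.003 per bin, 0.21 per neuronal UMI, -1.07 with larger windows and -0.16 in the Neurod6 field, and *Pvalb* (-2.17) was -1.43 per neuronal UMI and -1.64 in the Neurod6 field.

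In the reticular list at 3 days the GABA sum (-0.49) was -0.16 per bin, -0.42 with larger windows, -1.17 reflected, and -0.38 and -0.34 in the Six3 strip at 50 and 30%, and *Pvalb* (-0.33) was -0.0101 per bin and -1.96 reflected. At 28 days the GABA sum (-2.03) was -2.50 per bin, -1.27 per neuronal UMI, -1.22 reflected, and -1.14 and -1.36 in the Six3 strip, and *Pvalb* (-2.42) was -2.88 per bin, -1.65 per neuronal UMI, -2.66 with larger windows, -3.40 reflected and -1.57 in the Six3 strip. Both were lower there at 28 days under every alternative run, although the list and the strip share *Six3*.

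Among the single genes that turned sign, *Calb1* did so in perilesional cortex in mirrored tiles (0.24 at 3 days, -0.35 at 28 days), and *Lhx6* in the reticular list at 3 days in the Six3 strip at 50% (-2.26) and 30% (-1.93), from at most 3 UMIs a side. At 3 days so did *Gad1* in the hippocampal list with the opposite area reflected (-0.49), *Calb1* (2.91) and *Calb2* (2.66) in the Neurod6 field, and *Calb2* in the Six3 strip at 30% (2.74). Other members turned sign too, among them *Gad2*, *Slc32a1*, *Reln* and *Lhx6*. Depth limits *Lhx6*, *Reln* and *Calb2* most, since many of their areas hold fewer than 50 UMIs.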
